A study of Homo sapiens with 20 samples.

Results

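RNA sequencing is described here for SW480 siPOLR1D-3 replicates 1-3 and for 3 of the SW480 control libraries, SCR replicates 4-6. They are 6 of the 20 libraries of the series and 6 of its 12 SW480 libraries. The controls were selected on measured values: of the 6 SW480 SCR libraries, replicates 4, 5 and 6 were taken because they resembled the siPOLR1D-3 libraries most in overall expression. What separates these 6 libraries is therefore given as a description, and the test of the siRNA is its comparison with all 6 SCR libraries, grouped by the labels alone. The description and the test share all 6 libraries.

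The study silenced POLR1D by transfecting small interfering RNAs (siRNAs) into SW480 and HT29, established colorectal adenocarcinoma cell lines, and sequenced captured coding RNA 72 h later. SW480 carries a gain of the whole of chromosome 13, where POLR1D lies, and HT29 a focal amplification around it, by the study's methods. The libraries of the series hold 2 of the study's siRNAs against POLR1D, siPOLR1D-2 and siPOLR1D-3, and SCR is the AllStars Negative Control, a scrambled siRNA with no intended target. All SW480 groups, that is 3 siPOLR1D-3, 3 siPOLR1D-2 and 6 SCR libraries, are unmodified SW480 cells given siRNA for 72 h, and HT29 has 2 siPOLR1D-3 and 4 SCR libraries used here. Values are read counts per gene normalized by the authors, and rows with the same gene name were added up.

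The choice of controls rests on the Pearson correlation of log2 values with the siPOLR1D-3 libraries over 16007 genes, which are not independent replicates. The mean correlation was 0.9624 for SCR replicate 4, 0.9702 for replicate 5 and 0.9669 for replicate 6, just inside the choice. Just outside it were SCR replicate 1 with 0.9495, replicate 2 with 0.9305 and replicate 3 with 0.9191. Among the siPOLR1D-2 libraries, replicate 3 reached 0.9657, and replicates 1 and 2 had 0.9415 and 0.9383. The deposited values hold no raw counts, so depth was estimated by dividing each library's sum by its most frequent low value. It came to 18.7 M, 19.9 M and 26.3 M reads in siPOLR1D-3 replicates 1-3, 20.2 M, 25.7 M and 27.6 M in SCR replicates 4-6, and 18.7 M, 20.5 M and 19.1 M in SCR replicates 1-3. The estimate is rough, as only 21.9% to 43.5% of low values in these libraries were near whole multiples of that value. Gene names above 0 numbered 21420, 21400 and 22411, then 21339, 21848 and 21883, then 19167, 20133 and 20287 in the same order, fewest in SCR replicates 1-3. The labels do not say whether replicates are separate cultures, so p values may measure technical spread alone. The labels also name no batch, so a batch that follows the replicate numbers and the choice of controls cannot be told apart.

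**Figure D1:**
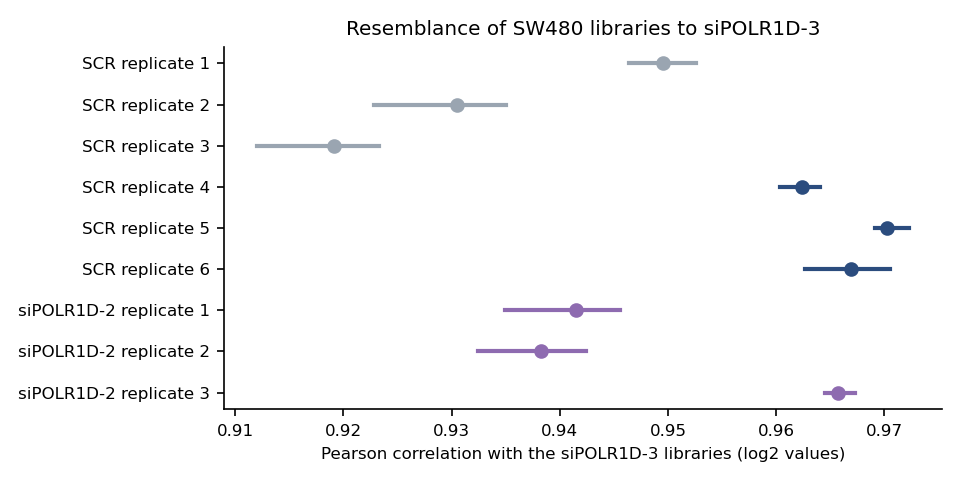
Pearson correlation of log2 values (horizontal axis, no unit) between each SW480 SCR or siPOLR1D-2 library and the 3 siPOLR1D-3 libraries, with a point at the mean and a line from the lowest to the highest. SCR replicates 4-6 lie between 0.9624 and 0.9702, to the right of SCR replicates 1-3, which lie between 0.9191 and 0.9495.

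POLR1D is a subunit shared by RNA polymerase I, which transcribes the large ribosomal RNA precursor, and RNA polymerase III, which makes transfer RNAs, 5S ribosomal RNA and other small RNAs. Cells that lack amino acids or carry misfolded proteins phosphorylate the translation factor eIF2, which favours translation of the transcription factor ATF4. ATF4, often with the factor CHOP (DDIT3), raises genes for amino acid synthesis and uptake, for aminoacyl-tRNA synthetases and for stress signalling.

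POLR1D itself had a value of 843, 1174 and 981 in siPOLR1D-3 replicates 1-3, 1829, 1932 and 1980.1 in SCR replicates 4-6 and 2599, 2080.5 and 2278 in SCR replicates 1-3. Each siPOLR1D-3 library was below each of the 6 SCR libraries, and the lowest was replicate 1. The mean was 999 ± 166 (SD, n = 3) in siPOLR1D-3 and 1914 ± 77.3 (SD, n = 3) in SCR 4-6, a 1.92-fold lower value. Against all 6 SCR libraries POLR1D fell by 1.09 on the log2 scale (adjusted p = 0.00579), and the exact permutation test over the 9 libraries, 2-sided, gave p = 0.0119, the smallest that 84 arrangements allow. In siPOLR1D-2 replicates 1-3 the values were 1336, 913 and 972, in HT29 siPOLR1D-3 2858 and 2549.6, and in HT29 SCR 6036, 4711, 4433 and 5009.6.

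Markers of the cell type matched the label. Of 8 colorectal epithelial genes, 7 had a value of 10 or more in all 6 libraries, and their summed value lay between 178580 and 208070, with KRT18 the most abundant. CDX1, a caudal homeobox factor of colonic epithelium, did not exceed 2.16. Summed values in siPOLR1D-3 replicates 1-3 and SCR replicates 4-6 were 82.1, 109, 142, 125, 78.3 and 135 for 5 leukocyte genes, led by CD68. For 4 endothelial genes, led by VWF, they were 70.2, 35.7, 64.7, 143, 86.3 and 37.1, and KDR did not exceed 1.57. For 4 fibroblast genes they were 1053, 725, 581, 1123, 1118 and 762, nearly all of it COL1A1 and PDGFRB, while DCN did not exceed 8.45. No marker was at 0 in all 6 libraries. As RNA was taken from whole cultures, fewer cells of a kind and less RNA per cell cannot be told apart.

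Against all 6 SCR libraries, 28 of 43 ATF4 and CHOP targets, 13 of 20 aminoacyl-tRNA synthetases and the ligand genes AREG, EREG, HBEGF and VEGFA were called lower in siPOLR1D-3, while 6 of 27 colonocyte differentiation genes and 6 of 27 Wnt targets were called higher. Of 15414 genes tested against SCR 4-6, limma called 3110 at an adjusted p under 0.05, which is 20.2% in either direction. The 1429 higher were 9.27% and the 1681 lower 10.9%. Nothing is read from these shares, since the controls were chosen on the same values. Without siPOLR1D-3 replicate 3 the count was 1819. The test against all 6 SCR called 917 of 15705 genes, or 5.84%, with 315 higher (2.01%) and 602 lower (3.83%). In both comparisons this balance turned under upper quartile scaling, where more genes were called higher than lower, as given with the processing below. The count of 917 rests on each siPOLR1D-3 library, as it was 70 without replicate 1, 142 without replicate 2 and 43 without replicate 3. Leaving out SCR replicate 6 gave 554. The median log2 fold change of all genes tested was 0.0027 against SCR 4-6 and 0.022 against all 6 SCR, and the list medians below stand beside these values. Up to 4 members named per list were picked for the smallest p against SCR 4-6. As SCR 4-6 are among all 6 SCR, that choice favours a lack of overlap and a small adjusted p there for the members named.

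**Figure D2:**
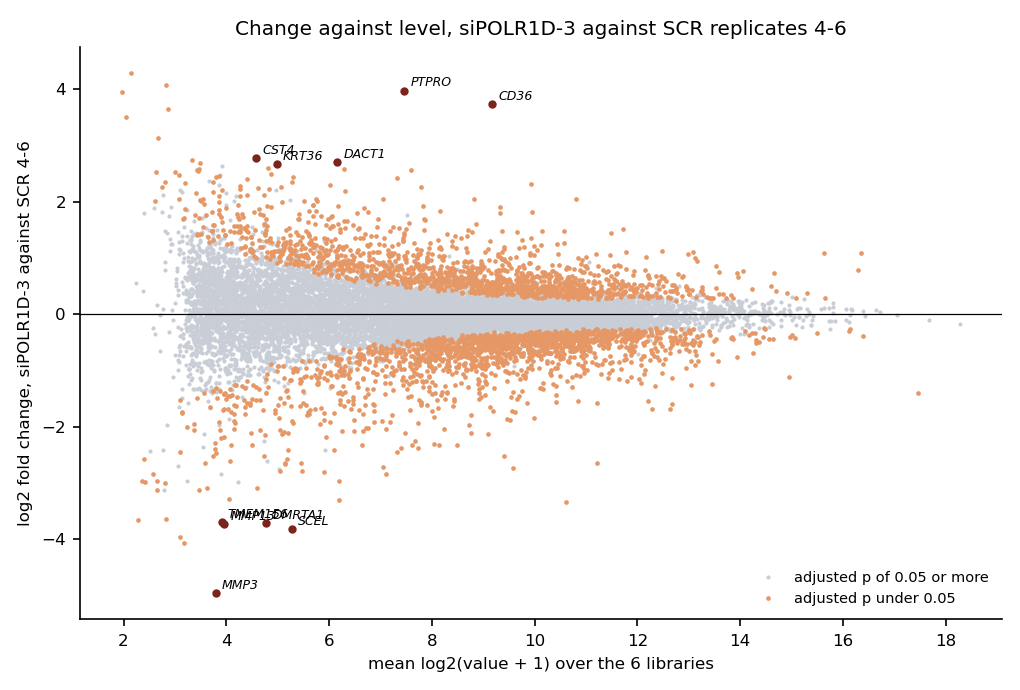
Log2 fold change of siPOLR1D-3 against SCR 4-6 (vertical axis) by mean log2(value + 1) over the 6 libraries (horizontal axis), 1 point per gene, orange at adjusted p under 0.05 and grey otherwise. The 10 dark points are named genes with the largest changes in each direction, from PTPRO at 3.98 and CD36 at 3.73 to MMP3 at -4.95. MMP3 was under the minimum of 10 in every siPOLR1D-3 library and passed that filter on SCR 4-6 alone, so its fold is not exact.

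The ATF4 and CHOP targets were the list with the lowest median of the 24 lists in both comparisons. Of its members 42 were tested against SCR 4-6, 1 higher and 37 lower at adjusted p under 0.05 and 4 not called, with a median log2 fold change of -1.26. With all 6 SCR libraries as controls, 0 of 43 were called higher, 28 lower and 15 neither, with a median of -1.15. The 28 that fell include ASNS, which makes asparagine, PHGDH, the entry enzyme of serine synthesis, MTHFD2, a mitochondrial folate enzyme, and TRIB3, a pseudokinase that ATF4 and CHOP induce. ASNS had values of 3174, 3759 and 3761 in siPOLR1D-3, 11832, 10640 and 11654 in SCR 4-6 and 7151, 6695 and 18824 in SCR 1-3. All 3 siPOLR1D-3 libraries were below every SCR library, and SCR replicate 3 stood above the other controls. The means of 3565 ± 338 (SD, n = 3) in siPOLR1D-3 and 11375 ± 643 (SD, n = 3) in SCR 4-6 differ 3.19-fold, and against all 6 SCR ASNS fell by 1.56 on the log2 scale (adjusted p = 0.0134).

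MTHFD2 had 2549.6, 2837 and 2908 in siPOLR1D-3, 7960.3, 8726 and 10129 in SCR 4-6 and 5713, 8141 and 7740.2 in SCR 1-3. The groups did not overlap, and the log2 fold change was -1.69 against SCR 4-6 and -1.53 against all 6 SCR (adjusted p = 0.00194). For TRIB3 the values were 281, 249 and 319.8 in siPOLR1D-3, 1212, 1715 and 2035 in SCR 4-6 and 408, 937 and 1853 in SCR 1-3. SCR replicate 1 was the control nearest to siPOLR1D-3, without overlap, and the log2 fold change was -2.52 and -2.09 in the same order (adjusted p = 0.0239 against all 6). PHGDH had 2766, 2616 and 3083 in siPOLR1D-3 against 6982, 6283 and 6478 in SCR 4-6 and 5143, 7533 and 11593 in SCR 1-3. It fell by 1.33 on the log2 scale against all 6 SCR (adjusted p = 0.00849), with no overlap. TXNIP, an arrestin domain protein that restrains glucose uptake and the 1 list member called higher against SCR 4-6, had a log2 fold change there of 0.75 and, against all 6 SCR, -0.17, without a call. TXNIP was named after its values were seen.

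Taken library by library, the median over this list of the difference from the mean of SCR 4-6 was -1.29, -1.30 and -1.15 on the log2 scale in siPOLR1D-3 replicates 1-3. It was -0.20, -0.075 and 0.25 in SCR replicates 4-6. SCR replicate 1 had -0.65, while replicates 2 and 3 had 0.19 and 0.20. The controls had replicate 1 as their lowest, and each siPOLR1D-3 library lay below it.

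**Figure D3:**
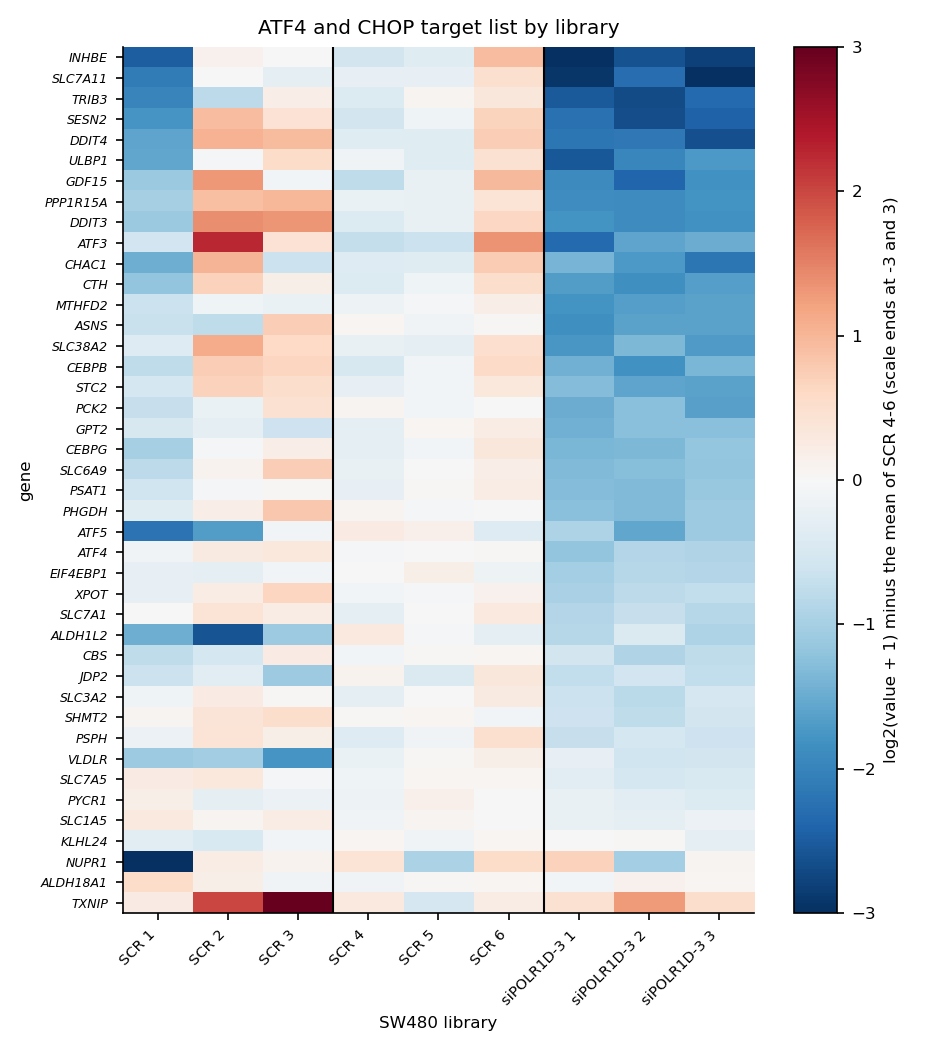
Log2(value + 1) minus the mean of SCR 4-6 (color, from -3 in blue to 3 in red) for the genes of the ATF4 and CHOP list (rows) in SCR 1-3, SCR 4-6 and siPOLR1D-3 (columns). The siPOLR1D-3 columns are blue for most genes, with medians of -1.29, -1.30 and -1.15, while SCR replicate 1 has a median of -0.65 and TXNIP at the bottom is highest in SCR replicates 2 and 3, at 2.00 and 3.28.

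Promoters of the ATF4 and CHOP targets and of the aminoacyl-tRNA synthetase genes were searched on both strands for TGATGNAA. These letters are the core of the element that ATF4 and its C/EBP partners bind. The search covered the 250 bases before each RefSeq start (build GRCh38.p14). The letters were found in 1104 of 35116 promoters (3.14%). Of 34 ATF4 and CHOP genes matched by symbol 7 held them, in 7 of 53 promoters (13.2%), and of 16 synthetase genes 3 did, in 3 of 21 promoters (14.3%). Of the 7 on the ATF4 and CHOP list 2 fell against all 6 SCR and 5 had no call, and of the 3 synthetase genes all 3 fell. The promoters below belong to synthetase genes that fell against all 6 SCR and hold the letters, and they are shown for that reason. They are GARS at chr7:30594628-30594877 (plus strand) and IARS at chr9:92293698-92293947 (minus strand). Capitals mark the letters found, as the reverse complement TTNCATCA in both. A match is a description of letters and not a measured binding site. The ATF4 and CHOP list gathers genes taken as targets of these factors, and ATF4 also raises synthetase genes. A larger share than among all promoters was therefore favoured by the choice of lists. Nothing is read from it, and why these genes fell was not tested. GARS and IARS were named after their values were seen.
GARS: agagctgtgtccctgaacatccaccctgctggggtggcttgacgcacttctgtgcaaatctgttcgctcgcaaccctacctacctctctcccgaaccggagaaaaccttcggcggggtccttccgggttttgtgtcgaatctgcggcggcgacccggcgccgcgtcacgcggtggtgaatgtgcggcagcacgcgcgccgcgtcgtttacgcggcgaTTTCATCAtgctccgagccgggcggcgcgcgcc
IARS: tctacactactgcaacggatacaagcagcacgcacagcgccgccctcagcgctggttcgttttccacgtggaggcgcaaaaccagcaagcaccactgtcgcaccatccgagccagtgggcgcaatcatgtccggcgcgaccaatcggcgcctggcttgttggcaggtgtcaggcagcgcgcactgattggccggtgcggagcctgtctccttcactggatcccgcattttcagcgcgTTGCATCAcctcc

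In siPOLR1D-3 and SCR 4-6, GARS had 18960, 23100 and 23030 against 42160, 42550 and 57370. IARS had 11490, 12990 and 11660 against 19810, 19430 and 21590. Neither gene overlapped between the 6 libraries. Their log2 fold changes against all 6 SCR were -1.10 for GARS and -0.84 for IARS.

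Cytosolic aminoacyl-tRNA synthetases attach amino acids to the transfer RNAs that RNA polymerase III makes. All 20 were tested against SCR 4-6, 1 higher and 14 lower at adjusted p under 0.05 and 5 not called, with a median log2 fold change of -0.66. In the test against all 6 SCR, 0 of 20 were called higher, 13 lower and 7 neither, with a median of -0.69. The seryl enzyme gene SARS had 2669, 2828 and 2994 in siPOLR1D-3, 7036, 6355 and 5463 in SCR 4-6 and 4587, 4537 and 9783 in SCR 1-3. The cysteinyl enzyme gene CARS had 1194, 1211 and 1085, then 2424, 2466 and 2616, then 1939, 2225 and 2925 in the same order. Neither overlapped between siPOLR1D-3 and any SCR library, and against all 6 SCR they fell by 1.10 and 1.05 on the log2 scale (adjusted p = 0.0208 and 0.00476). YARS, for tyrosine, had a log2 fold change of -0.79 against SCR 4-6 and -0.86 against all 6 SCR (adjusted p = 0.00601). WARS, for tryptophan, had -0.96 and -0.95, without a call against all 6 SCR (adjusted p = 0.0968), where SCR replicates 1-3 spread from 2699.9 to 9733.

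Genes of the unfolded protein response of the endoplasmic reticulum help proteins fold there or remove those that do not. Of this list 22 were tested against SCR 4-6, 3 higher and 7 lower at adjusted p under 0.05 and 12 not called, with a median log2 fold change of -0.11. When all 6 SCR served as controls, 2 of 22 were called higher, 5 lower and 15 neither, with a median of -0.015. The sensor ERN1 (IRE1) had 96.0, 139.6 and 157 in siPOLR1D-3, 331, 337 and 483 in SCR 4-6 and 184, 319 and 428 in SCR 1-3, and the sensor ATF6 had 1056, 1451 and 1162, then 2115, 2108 and 2332, then 1846, 2392 and 3815 in that order. Both were lower in each siPOLR1D-3 library than in each SCR library. Against all 6 SCR, ERN1 fell by 1.37 and ATF6 by 0.96 on the log2 scale (adjusted p = 0.0241 and 0.0263). HERPUD1, which serves degradation of misfolded proteins, had 678, 860.2 and 858 in siPOLR1D-3 and 1925, 2326 and 2841 in SCR 4-6, and fell by 1.45 on the log2 scale against all 6 SCR (adjusted p = 0.0189). The chaperone CALR went the other way, with 34005, 33490 and 32961 in siPOLR1D-3, 19430, 20811 and 20164 in SCR 4-6 and 28682, 20596 and 12930 in SCR 1-3. Its log2 fold change against all 6 SCR was 0.75 (adjusted p = 0.0494), close to the threshold.

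NRF2 targets protect against oxidants, and the list shares SLC7A11 with the ATF4 list. Of its genes 25 were tested against SCR 4-6, 2 higher and 10 lower at adjusted p under 0.05 and 13 not called, with a median log2 fold change of -0.45. By limma against all 6 SCR, 0 of 25 were called higher, 6 lower and 19 neither, with a median of -0.31. SLC7A11, the cystine importer, had 261, 404 and 248 in siPOLR1D-3, 1669.5, 1663 and 2743 in SCR 4-6 and 461, 1937 and 1621 in SCR 1-3. SCR replicate 1 stood near the siPOLR1D-3 libraries, though above them. SLC7A11 was 6.65-fold lower than in SCR 4-6 and fell by 2.32 on the log2 scale against all 6 SCR (adjusted p = 0.0181). The thioredoxin reductase TXNRD1 had log2 fold changes of -0.68 and -0.85, the quinone reductase NQO1 -0.66 and -1.03, and GCLC, of glutathione synthesis, -0.64 and -0.72, each against SCR 4-6 and then all 6 SCR. All 3 fell in the test against all 6 SCR, with adjusted p between 0.0109 and 0.0359.

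Among growth factor ligands, AREG (chr4:74445134-74455009) and EREG lie on chromosome 4 and encode ligands of the EGF receptor. AREG had 321, 761 and 489 in siPOLR1D-3, 2403, 3333 and 15474 in SCR 4-6 and 1965, 4449 and 5620.2 in SCR 1-3, with SCR replicate 6 far above the rest. EREG had 24.8, 23.7 and 27.5 in siPOLR1D-3, 153, 139.8 and 398 in SCR 4-6 and 125, 159 and 357 in SCR 1-3. For both, every siPOLR1D-3 library was below every SCR library. The mean was 524 ± 222 (SD, n = 3) against 7069.8 ± 7293 (SD, n = 3) for AREG and 25.3 ± 1.98 (SD, n = 3) against 230.4 ± 146 (SD, n = 3) for EREG, 13.5-fold and 9.10-fold lower. Without SCR replicate 6 these were 5.48-fold and 5.78-fold. Against all 6 SCR, AREG fell by 3.11 on the log2 scale (adjusted p = 0.0133) and EREG by 2.92 (adjusted p = 0.00582), with p = 0.0119 for EREG in the exact permutation test.

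HBEGF, a heparin-binding ligand of the same receptor, had 73.8, 117 and 89.5 in siPOLR1D-3, 336, 373 and 875 in SCR 4-6 and 113, 322 and 597 in SCR 1-3. SCR replicate 1 lay within the siPOLR1D-3 range, so these groups overlapped once all controls were used, and the log2 fold change was -1.98 there (adjusted p = 0.0464). VEGFA, the main ligand of blood vessel growth, had 519, 515 and 566 in siPOLR1D-3, 1223, 1367 and 2366 in SCR 4-6 and 751, 1595 and 1166 in SCR 1-3. No library overlapped, and SCR replicate 1 was the control closest to siPOLR1D-3. VEGFA was 3.10-fold lower than in SCR 4-6, and against all 6 SCR it fell by 1.32 on the log2 scale (adjusted p = 0.0253). That call was lost without any 1 of the siPOLR1D-3 libraries, with adjusted p = 0.130 without replicate 1, 0.112 without replicate 2 and 0.105 without replicate 3. For POLR1D and EREG the adjusted p in limma against all 6 SCR reached 0.0491 with 1 library left out. Calls of the other named genes were not looked at in this way. For the whole list of VEGF and EGF family ligands and receptors, 19 genes were tested against SCR 4-6, 0 higher and 8 lower at adjusted p under 0.05 and 11 not called, with a median log2 fold change of -0.24. Set against all 6 SCR libraries, 0 of 19 were called higher, 4 lower and 15 neither, with a median of 0.12. The 4 that fell are AREG, EREG, HBEGF and VEGFA.

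**Figure D4:**
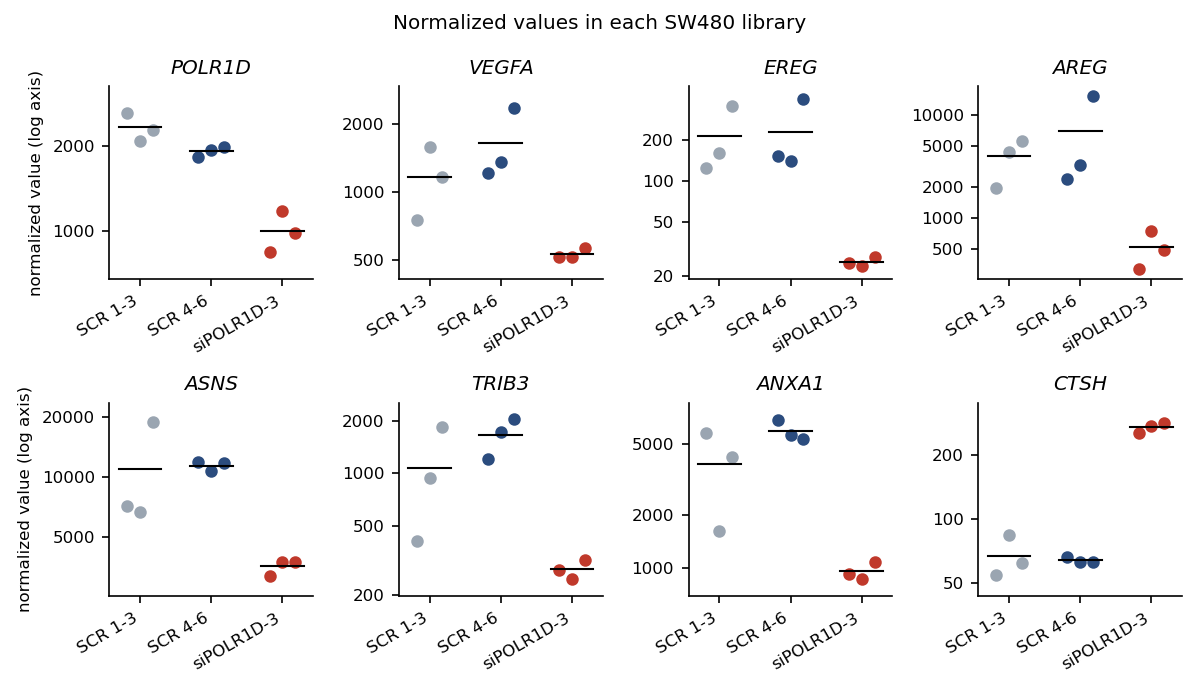
Normalized value (vertical axis, log scale) in each SW480 library for 8 genes, with SCR 1-3 in grey, SCR 4-6 in blue, siPOLR1D-3 in red and a line at each group's mean. In each panel the siPOLR1D-3 points lie apart from all 6 SCR points, from POLR1D at 999 against 1914 in SCR 4-6 to CTSH at 269.9 against 64.1.

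Genes driven by MAPK signalling, the cascade downstream of growth factor receptors, include immediate early genes and feedback inhibitors. Of this list 30 were tested against SCR 4-6, 0 higher and 13 lower at adjusted p under 0.05 and 17 not called, with a median log2 fold change of -0.53. With all 6 SCR libraries as controls, 0 of 30 were called higher, 7 lower and 23 neither, with a median of -0.73. The ephrin receptor EPHA2 had 3883, 3545 and 3531 in siPOLR1D-3, 5662, 5789 and 7903 in SCR 4-6 and 5805, 8108 and 7758 in SCR 1-3. Its relative EPHA4 had 338, 629 and 588, then 1266, 1152 and 1734, then 1109, 2982 and 3943. Neither overlapped with any SCR library, and against all 6 SCR they fell by 0.89 and 1.84 on the log2 scale (adjusted p = 0.0107 and 0.0307). The transcription factor ETV5 had a log2 fold change of -0.57 against SCR 4-6 and -0.63 against all 6 SCR (adjusted p = 0.0227). MAFF, a small MAF factor, had low values of 11.6, 8.35 and 15.0 in siPOLR1D-3 and 33.2, 63.5 and 59.8 in SCR 4-6, and fell by 2.20 on the log2 scale against all 6 SCR (adjusted p = 0.00794).

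Subunits of RNA polymerases I and III form a list of 24 genes that includes POLR1D. All 24 were tested against SCR 4-6, 3 higher and 3 lower at adjusted p under 0.05 and 18 not called, with a median log2 fold change of -0.028. In the test against all 6 SCR, 2 of 24 were called higher, 2 lower and 20 neither, with a median of -0.16. POLR1D is among those called lower in both comparisons. POLR3E, a subunit of RNA polymerase III alone, had 1129, 1245 and 1359.7 in siPOLR1D-3, 679, 754 and 970.2 in SCR 4-6 and 890.1, 809 and 758 in SCR 1-3, without overlap. It rose against all 6 SCR with a log2 fold change of 0.62 (adjusted p = 0.0254). POLR1A, the largest subunit of RNA polymerase I, had 4578, 3645 and 4365, then 2584, 3279.9 and 2868, then 3261, 2899 and 2642 in the same order and rose by 0.52 (adjusted p = 0.0322). POLR3D went the other way, with 361, 426 and 360.1, then 633, 519 and 620.5, then 561, 633 and 640.3, and fell by 0.65 on the log2 scale (adjusted p = 0.0171). The RNA polymerase I subunit CD3EAP had a log2 fold change of 0.68 against SCR 4-6 and 0.49 against all 6 SCR, without a call (adjusted p = 0.194).

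The factors that load these polymerases include UBTF, which opens ribosomal RNA genes, and BRF1, BDP1 and GTF3A, which serve RNA polymerase III. In this list 19 were tested against SCR 4-6, 3 higher and 0 lower at adjusted p under 0.05 and 16 not called, with a median log2 fold change of -0.019. When all 6 SCR served as controls, 2 of 19 were called higher, 0 lower and 17 neither, with a median of -0.039. UBTF had 2146, 2059 and 2122 in siPOLR1D-3, 1337, 1286 and 960.4 in SCR 4-6 and 1729, 1275 and 1107 in SCR 1-3. It lay above every SCR library and rose by 0.74 on the log2 scale against all 6 SCR (adjusted p = 0.0279). BRF1 rose by 0.47 (adjusted p = 0.0424), with 624, 598 and 638 in siPOLR1D-3 and 462, 522 and 418 in SCR 4-6. The log2 fold changes of GTF3A and BDP1 against all 6 SCR were 0.22 and -0.32, without a call.

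Cytosolic ribosomal protein genes showed small differences. All 79 were tested against SCR 4-6, 1 higher and 1 lower at adjusted p under 0.05 and 77 not called, with a median log2 fold change of 0.038. By limma against all 6 SCR, 0 of 79 were called higher, 0 lower and 79 neither, while 1 had an unadjusted p under 0.05 in limma, with a median of -0.014. RPS26, of the small subunit, had 4606, 4075 and 4732 in siPOLR1D-3 and 3119, 3662 and 3436 in SCR 4-6, but 4867, 4295 and 3533 in SCR 1-3, which overlap with siPOLR1D-3. RPS27A, made as a fusion with ubiquitin, had 36640, 44204 and 42763 in siPOLR1D-3, 49078, 51587 and 54860 in SCR 4-6 and 62021, 49532 and 56898 in SCR 1-3. Its log2 fold change was -0.33 against SCR 4-6 and -0.39 against all 6 SCR (adjusted p = 0.0811), without overlap and without a call in the latter. RPS10 and RPS15 had 0.24 and 0.24 against SCR 4-6 and 0.11 and -0.068 against all 6 SCR.

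Ribosome biogenesis factors process and assemble ribosomal RNA in the nucleolus. Of the list 42 were tested against SCR 4-6, 4 higher and 2 lower at adjusted p under 0.05 and 36 not called, with a median log2 fold change of 0.042. Set against all 6 SCR libraries, 1 of 42 was called higher, 2 lower and 39 neither, with a median of -0.077. DDX21, a nucleolar helicase, had 6632, 8267 and 7476 in siPOLR1D-3, 9373, 9976 and 11358 in SCR 4-6 and 9444, 11337 and 10672 in SCR 1-3, below all controls. It fell by 0.48 on the log2 scale against all 6 SCR (adjusted p = 0.0346). NOP2, a ribosomal RNA methyltransferase, and NCL, nucleolin, had log2 fold changes of 0.61 and 0.38 against SCR 4-6. With all controls they had 0.41 and 0.27, without a call. The list also holds POLR1A, given above, and NOB1, a nuclease of the small subunit named after its values were seen, which fell by 0.45.

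Genes of DNA replication copy the genome in S phase. All 40 were tested against SCR 4-6, 17 higher and 1 lower at adjusted p under 0.05 and 22 not called, with a median log2 fold change of 0.39. With all 6 SCR libraries as controls, 0 of 40 were called higher, 0 lower and 40 neither, while 6 had an unadjusted p under 0.05 in limma, with a median of 0.21. PCNA, the sliding clamp, had 4678, 5696 and 5069 in siPOLR1D-3, 2554, 3198 and 3315 in SCR 4-6 and 6274, 5468 and 3511 in SCR 1-3, and the helicase subunit MCM4 had 6672, 6609.7 and 6776, then 3399, 4668 and 4567, then 7162, 8925 and 4175. For both, SCR replicates 1 and 2 reached or passed the siPOLR1D-3 values, so the difference depends on which controls are used. MCM5 and POLE, the latter a replicative polymerase, had log2 fold changes of 0.77 and 0.59 against SCR 4-6, and 0.53 and 0.44 against all 6 SCR (adjusted p = 0.124 and 0.142).

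Mitotic genes build the spindle and divide the cell. Here 40 were tested against SCR 4-6, 5 higher and 4 lower at adjusted p under 0.05 and 31 not called, with a median log2 fold change of 0.087. In the test against all 6 SCR, 0 of 40 were called higher, 2 lower and 38 neither, with a median of -0.058. TPX2, which nucleates spindle microtubules and activates Aurora A, had 3760.3, 4311 and 4253 in siPOLR1D-3, 6834, 6817 and 7118 in SCR 4-6 and 8776, 7487 and 6637 in SCR 1-3. It fell by 0.82 on the log2 scale against all 6 SCR (adjusted p = 0.00582), with every siPOLR1D-3 library below every control. ECT2, an exchange factor of cytokinesis named after its values were seen, fell by 0.61. The kinase PLK1, the spindle protein PRC1 and the kinesin KIF20A had log2 fold changes of 0.70, 0.75 and 0.68 against SCR 4-6. The test against all controls gave 0.52, 0.62 and 0.47, with adjusted p of 0.0917, 0.0549 and 0.166.

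The p53 target list and the apoptosis list share PMAIP1 (NOXA), which promotes cell death by binding MCL1, and the death receptor TNFRSF10B. SW480 carries mutant p53. Of the p53 targets 24 were tested against SCR 4-6, 2 higher and 5 lower at adjusted p under 0.05 and 17 not called, with a median log2 fold change of -0.011. When all 6 SCR served as controls, 0 of 24 were called higher, 3 lower and 21 neither, with a median of -0.012. PMAIP1 had 42.0, 49.2 and 60.9 in siPOLR1D-3, 108, 134 and 249 in SCR 4-6 and 164, 464 and 316 in SCR 1-3. TNFRSF10B had 3080.4, 3471 and 3196, then 4928, 5025 and 7292, then 4931, 7604 and 11952 in the same order. Both were below every control and fell against all 6 SCR, by 2.05 and 1.02 on the log2 scale (adjusted p = 0.0227 and 0.0464). The kinase PLK2 had 904, 925 and 892 in siPOLR1D-3 and 1630.4, 1694 and 2139 in SCR 4-6 and fell by 0.82 (adjusted p = 0.0181). MDM2, the ligase for p53, had -0.44 against SCR 4-6 and -0.37 against all 6 SCR (adjusted p = 0.0871).

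Of the apoptosis regulators 28 were tested against SCR 4-6, 1 higher and 8 lower at adjusted p under 0.05 and 19 not called, with a median log2 fold change of -0.22. By limma against all 6 SCR, 1 of 28 was called higher, 2 lower and 25 neither, with a median of -0.35. BCL2L11 (BIM), which promotes cell death, had 373, 336 and 330.3 in siPOLR1D-3, 166, 218 and 195 in SCR 4-6 and 149, 193 and 116 in SCR 1-3. Each siPOLR1D-3 library was above each control, and BCL2L11 rose by 1.03 on the log2 scale against all 6 SCR (adjusted p = 0.0208). The caspase inhibitor XIAP had a log2 fold change of -0.40 against SCR 4-6 and -0.31 against all 6 SCR (adjusted p = 0.130).

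Glycolysis and hypoxia genes answer in part to the factor HIF. This list had 33 tested against SCR 4-6, 2 higher and 5 lower at adjusted p under 0.05 and 26 not called, with a median log2 fold change of -0.048. Set against all 6 SCR libraries, 0 of 33 were called higher, 1 lower and 32 neither, with a median of -0.19. NDRG1, a hypoxia-inducible gene, had 538, 588 and 487 in siPOLR1D-3, 1096, 1146 and 1036 in SCR 4-6 and 1878, 3948 and 4155 in SCR 1-3. It was the 1 gene of the list to fall against all 6 SCR, by 1.79 on the log2 scale (adjusted p = 0.0468), and SCR replicates 1-3 were above SCR replicates 4-6. The mitophagy receptor BNIP3L, the glucose transporter SLC2A3 and the lactate exporter SLC16A3 had log2 fold changes of -0.52, -0.51 and -0.38 against SCR 4-6. Against all 6 SCR these were -0.51, -0.48 and -0.42, with adjusted p between 0.0685 and 0.0944.

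Cholesterol and fatty acid synthesis genes include many that the SREBP factors induce. Of these 34 were tested against SCR 4-6, 12 higher and 1 lower at adjusted p under 0.05 and 21 not called, with a median log2 fold change of 0.29. With all 6 SCR libraries as controls, 0 of 34 were called higher, 0 lower and 34 neither, while 5 had an unadjusted p under 0.05 in limma, with a median of 0.15. FASN, fatty acid synthase, had 19993, 13428 and 14952 in siPOLR1D-3, 8168, 10197 and 8154 in SCR 4-6 and 15355, 13703 and 6223 in SCR 1-3. SCR replicates 1 and 2 lay within the siPOLR1D-3 range, apart from SCR 4-6. The sterol enzyme LSS had a log2 fold change of 0.81 against SCR 4-6 and 0.81 against all 6 SCR (adjusted p = 0.0695).

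Colonocyte differentiation genes had the highest median of the 24 lists in both comparisons. Of 39 genes with a row, 27 were tested against SCR 4-6, 10 higher and 2 lower at adjusted p under 0.05 and 15 not called, with a median log2 fold change of 0.75. In the test against all 6 SCR, 6 of 27 were called higher, 1 lower and 20 neither, with a median of 0.99. The membrane mucin MUC12 had 391, 414 and 428 in siPOLR1D-3, 163, 125 and 99.7 in SCR 4-6 and 23.3, 29.6 and 71.0 in SCR 1-3. FCGBP, a goblet cell mucus protein, had 213, 174 and 199, then 83.6, 66.2 and 72.4, then 40.9, 35.1 and 47.7, and the homeobox factor PROX1 had 2292, 2573 and 3019, then 1261, 1399 and 1552, then 1241, 1212 and 651. All 3 were above every control, and they rose against all 6 SCR by 2.57, 1.80 and 1.15 on the log2 scale (adjusted p = 0.0283, 0.0101 and 0.0230). MUC5AC, a secreted gastric-type mucin, had 416, 431 and 574 in siPOLR1D-3 and 36.0, 87.9 and 149 in SCR 4-6. SCR 1-3 had 597, 1194 and 471, within or above the siPOLR1D-3 range, and with SCR 1-3 as the controls its log2 fold change was -0.57. The 1 gene that fell, the peptidase DPP4, had -1.75 against all 6 SCR and was named after its values were seen.

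SW480 cells carry truncated APC, which leaves Wnt signalling on. Of the Wnt targets and intestinal stem cell genes 27 were tested against SCR 4-6, 14 higher and 4 lower at adjusted p under 0.05 and 9 not called, with a median log2 fold change of 0.30. When all 6 SCR served as controls, 6 of 27 were called higher, 1 lower and 20 neither, with a median of 0.54. EPHB2, a receptor of crypt cells, had 826, 867 and 952 in siPOLR1D-3, 355, 385 and 333 in SCR 4-6 and 498, 257 and 224 in SCR 1-3. AXIN2, a feedback inhibitor of the pathway, had 20823, 19590 and 20398, then 11344, 13358 and 12070, then 10552, 6768 and 5137. Both stood above every control, and rose against all 6 SCR by 1.41 and 1.11 on the log2 scale (adjusted p = 0.00967 and 0.0411). APCDD1, another inhibitor, had 12956, 12380 and 12670 in siPOLR1D-3, 5566, 6234 and 5845 in SCR 4-6 and 5863, 2031 and 1143 in SCR 1-3. It was apart from every control, but with the wide spread of SCR 1-3 its log2 fold change of 1.76 against all 6 SCR was not called (adjusted p = 0.0672). The transcription factor LEF1 had 1.01 against SCR 4-6 and 0.68 against all 6 SCR (adjusted p = 0.0905). MYC, on this list and the MAPK list, fell by 0.73 and was named after its values were seen.

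Epithelial and mesenchymal identity genes numbered 31 tested against SCR 4-6, 4 higher and 13 lower at adjusted p under 0.05 and 14 not called, with a median log2 fold change of -0.39. By limma against all 6 SCR, 2 of 31 were called higher, 4 lower and 25 neither, with a median of -0.30. ANXA1, an annexin that restrains inflammation, had 919, 868 and 1077 in siPOLR1D-3, 6892, 5618 and 5349.6 in SCR 4-6 and 5815, 1616 and 4227 in SCR 1-3. Its mean was 955 ± 109 (SD, n = 3) against 5954 ± 824 (SD, n = 3), a 6.24-fold lower value, and it fell by 2.24 on the log2 scale against all 6 SCR (adjusted p = 0.0110). SCR replicate 2 was the lowest control, still above siPOLR1D-3. ANXA3 fell by 1.08 (adjusted p = 0.0250), with 1449, 2134 and 2078 in siPOLR1D-3 and 4275, 4018 and 3986 in SCR 4-6. P-cadherin, CDH3, had 1187, 1399 and 1441 in siPOLR1D-3, 439, 479 and 541 in SCR 4-6 and 769, 215 and 203 in SCR 1-3, and rose by 1.76 (adjusted p = 0.0283). The epithelial splicing factor ESRP1 had a log2 fold change of -0.88 against SCR 4-6. In SCR 1-3 it had 2155, 1562 and 2373, which overlap with siPOLR1D-3, and no call was made against all 6 SCR.

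Interferon-stimulated genes can answer to introduced double-stranded RNA. Of 39 genes with a row, 34 were tested against SCR 4-6, 5 higher and 3 lower at adjusted p under 0.05 and 26 not called, with a median log2 fold change of 0.020. Set against all 6 SCR libraries, 2 of 34 were called higher, 1 lower and 31 neither, with a median of 0.11. IFI27 had 118, 110.5 and 99.8 in siPOLR1D-3, 37.6, 45.1 and 44.8 in SCR 4-6 and 32.6, 8.02 and 17.8 in SCR 1-3. It was above every control and rose by 1.99 on the log2 scale against all 6 SCR (adjusted p = 0.0434). The other gene that rose was IFIT1, by 1.66, named after its values were seen. The transcription factor IRF1 had 313, 346 and 350.4 in siPOLR1D-3, 570.5, 551 and 818 in SCR 4-6 and 540.1, 956 and 1183 in SCR 1-3, and fell by 1.13 (adjusted p = 0.0308). The ISG15 ligase HERC5 and the ubiquitin ligase DTX3L had log2 fold changes of 0.90 and -0.73 against SCR 4-6. With all controls they had 1.62 and -0.97, without a call (adjusted p = 0.106 and 0.0577).

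Of the APOL and Schlafen families 9 genes were tested against SCR 4-6, 0 higher and 2 lower at adjusted p under 0.05 and 7 not called, with a median log2 fold change of -0.39. With all 6 SCR libraries as controls, 0 of 10 were called higher, 0 lower and 10 neither, while 2 had an unadjusted p under 0.05 in limma, with a median of 0.083. SLFN5 had 459, 463 and 511 in siPOLR1D-3, 1500.0, 1248 and 1345 in SCR 4-6 and 476, 837 and 3591 in SCR 1-3. APOL6 had 46.7, 38.2 and 60.1, then 163, 133 and 127, then 60.2, 158 and 439 in that order. Values in SCR 1-3 ran from the siPOLR1D-3 level to several times it, and against all 6 SCR the log2 fold changes of -1.37 and -1.64 were not called (adjusted p = 0.109 and 0.0691). SLFN12 and APOL1, both low in value, had -0.99 and 0.69 against SCR 4-6, without a call.

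MHC class I genes load and present peptides at the cell surface. From this list 18 were tested against SCR 4-6, 1 higher and 2 lower at adjusted p under 0.05 and 15 not called, with a median log2 fold change of 0.028. In the test against all 6 SCR, 1 of 18 was called higher, 1 lower and 16 neither, with a median of -0.025. CALR, the 1 gene that rose, is described with the endoplasmic reticulum genes. HLA-E, whose value sums 7 rows that share the name, had 1167, 1071 and 1157 in siPOLR1D-3, 1423, 1543 and 1474 in SCR 4-6 and 1429.7, 1419 and 1670.0 in SCR 1-3. It fell by 0.40 on the log2 scale against all 6 SCR (adjusted p = 0.0407), below every control. The trimming peptidase ERAP1 had -0.36 and -0.53 against SCR 4-6 and all 6 SCR. TAPBP, a sum of 5 rows, had 0.40 against SCR 4-6 and 0.010 against all 6 SCR. Neither was called in the latter.

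Genes near POLR1D on the long arm of chromosome 13 share its copy number in SW480. Of these neighbours, POLR1D included, 15 were tested against SCR 4-6, 2 higher and 4 lower at adjusted p under 0.05 and 9 not called, with a median log2 fold change of -0.11. When all 6 SCR served as controls, 0 of 15 were called higher, 3 lower and 12 neither, with a median of -0.13. SLC7A1 (chr13:29509410-29595688), a cationic amino acid transporter also on the ATF4 list, had 1896, 2174 and 1946 in siPOLR1D-3, 2858, 3495 and 4334 in SCR 4-6 and 3504, 4685 and 4077 in SCR 1-3. It fell by 0.92 on the log2 scale against all 6 SCR (adjusted p = 0.0104). USP12 (chr13:27066142-27171896), a deubiquitinase, had 468, 432 and 446, then 739.9, 594 and 681, then 832, 855 and 816 in the same order and fell by 0.73 (adjusted p = 0.0163). Both were below every control. CDX2 (chr13:27962137-27971139), the homeobox factor of intestinal identity, had 168, 161 and 224 in siPOLR1D-3 and 78.4, 91.6 and 83.7 in SCR 4-6. In SCR replicate 1 it was 169, within the siPOLR1D-3 range, and no call was made against all 6 SCR (log2 fold change 1.19, adjusted p = 0.0779).

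Genes of RNA silencing and P-bodies carry out the action of siRNAs and microRNAs. All 21 were tested against SCR 4-6, 5 higher and 2 lower at adjusted p under 0.05 and 14 not called, with a median log2 fold change of 0.036. By limma against all 6 SCR, 4 of 21 were called higher, 1 lower and 16 neither, with a median of -0.013. TNRC6A (GW182), the scaffold of microRNA repression, had 3216, 3169 and 3364 in siPOLR1D-3, 1904, 1831 and 1625 in SCR 4-6 and 1196, 1663 and 1513 in SCR 1-3. LSM14A, a P-body protein, had 4093, 5171 and 4817, then 2290.3, 2793 and 2929.8, then 2599.9, 2671 and 2220.2, and the helicase DDX6 had 4662, 5377 and 4756, then 3058, 3054 and 3020.5, then 3783, 3275 and 4250.4. All 3 lay above every control and rose against all 6 SCR by 1.02, 0.86 and 0.54 on the log2 scale (adjusted p = 0.00601, 0.00601 and 0.0378). The other gene that rose, DGCR8 of microRNA processing, had a log2 fold change of 0.52 and was named after its values were seen. The decapping cofactor DCP1A fell by 0.62 (adjusted p = 0.0436). The sequence of siPOLR1D-3 is not given, so matches of its seed to these or other transcripts were not tested.

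Across the 24 lists, medians close to that of all genes changed sign with the scaling. Under upper quartile scaling or quantile normalization this held for 4 lists against SCR 4-6, with medians no farther from 0 than 0.048, and for 11 lists against all 6 SCR, no farther than 0.12. Upper quartile scaling moved the median of all genes against all 6 SCR to 0.12. The ATF4, synthetase, MAPK, NRF2, colonocyte and Wnt lists were not among these.

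The 10 genes with the largest positive log2 fold change against SCR 4-6 were chosen among genes whose 6 libraries did not overlap. The phosphatase PTPRO had 332, 617 and 1668 in siPOLR1D-3, 49.3, 19.5 and 84.4 in SCR 4-6 and 26.6, 11.3 and 4.84 in SCR 1-3. The fatty acid receptor CD36 had 1419, 1847 and 3566, then 71.8, 126 and 431, then 218, 129.6 and 45.1 in the same order. For both, siPOLR1D-3 replicate 3 was the highest, and the mean of PTPRO was 872 ± 704 (SD, n = 3). They rose against all 6 SCR by 4.89 and 3.997 on the log2 scale (adjusted p = 0.00956 and 0.00768). DACT1, a modulator of Wnt signalling, had 161, 207 and 179 in siPOLR1D-3 and 16.9, 43.6 and 26.2 in SCR 4-6, and DIO3, a deiodinase that inactivates thyroid hormone, had 169, 179.7 and 227 and 25.1, 31.7 and 37.4. The salivary cystatin CST4, the keratin KRT36 and the B-cell coactivator POU2AF1 had log2 fold changes of 2.77, 2.67 and 2.59 against SCR 4-6.

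SCR 4-6, on which these 10 and the 10 negative genes below were chosen, are also among all 6 SCR, so the choice favours a call there and nothing is read from how many were called. Not called among the 10 are MUC5AC, given above, and the calcium channel CACNA1E. CACNA1E had 52.6, 181 and 78.9 in siPOLR1D-3, 9.71, 13.2 and 30.8 in SCR 4-6 and 76.5, 653 and 514 in SCR 1-3, so that SCR 1-3 lay within or above the siPOLR1D-3 range. With SCR 1-3 as controls its log2 fold change was -1.69.

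The 10 largest negative changes against SCR 4-6 include AREG and EREG, given above. The matrix metalloproteinase MMP3 had 2.88, 1.16 and 0.862 in siPOLR1D-3 and 198, 39.0 and 57.1 in SCR 4-6, but 0.688, 0 and 0.657 in SCR 1-3. MMP13, of the same gene cluster on chromosome 11, had 4.28, 1.06 and 6.19, then 109, 38.1 and 41.8, then 3.29, 0 and 1.19. For both, SCR 1-3 were as low as siPOLR1D-3, and no call was made against all 6 SCR. Both were under the minimum of 10 in every siPOLR1D-3 library and passed that filter on SCR 4-6 alone, so their folds are not exact. That of MMP3 was 60.0 against SCR 4-6 and 29.4 without SCR replicate 4. SCEL, sciellin of cornified epithelia, had 14.9, 8.29 and 6.31 in siPOLR1D-3, 243, 135 and 91.6 in SCR 4-6 and 143, 30.1 and 133 in SCR 1-3, below every control, and fell by 3.43 on the log2 scale against all 6 SCR (adjusted p = 0.00969). SCEL was under the minimum of 10 in siPOLR1D-3 replicates 2 and 3 and passed that filter on its controls, so its fold is not exact either. Also called lower were DMRTA1, a doublesex-related factor, and the membrane protein gene TMEM156, with log2 fold changes of -3.25 and -3.02 (adjusted p = 0.0163 and 0.0133). TMEM156 had 3.04, 4.85 and 2.10 in siPOLR1D-3, all under the minimum of 10, and passed that filter on its controls, with 51.1, 67.7 and 42.6 in SCR 4-6 and 14.6, 15.5 and 36.6 in SCR 1-3. The myosin MYH2, the homeobox gene DUX4, a sum of 2 rows, and AL359955.1 had log2 fold changes of -3.08, -3.30 and -3.28 against SCR 4-6, without a call against all 6 SCR. AL359955.1 was 11.5-fold lower than in SCR 4-6. Without SCR replicate 6 this was 6.21-fold, and without siPOLR1D-3 replicate 3 it was 23.45-fold. For MYH2 the sign turned with SCR 1-3 as controls, with a log2 fold change of 1.32.

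The same siRNA was given to HT29, and the question there is whether the genes respond alike in another line. Among 13821 genes tested, limma called 0 (0%) with HT29 siPOLR1D-3 (n = 2) against SCR (n = 4), while 1033 had an unadjusted p under 0.05 and the smallest adjusted p was 0.0509. Leaving out HT29 SCR replicate 1 gave 4. POLR1D had a log2 fold change of -0.89 in HT29, with no overlap between groups. EREG had 178 and 248 in HT29 siPOLR1D-3 and 1142, 934, 368 and 485 in HT29 SCR, a log2 fold change of -1.65. SLC7A11 had -1.74, ANXA1 -0.87, MUC12 2.98, EPHB2 1.60 and AXIN2 0.97, and for these 5 genes, as for EREG, the HT29 groups did not overlap. With 2 against 4 libraries such a lack of overlap is easily met by chance. Its share over all genes tested in HT29 was not counted, so nothing is read from it. Named genes called against all 6 SCR in SW480 and tested in HT29 numbered 58. The sign was the same in 53 (91.4%), beside 700 of all 816 genes called so (85.8%) and 8611 of 13239 genes tested in both lines (65.0%). It was opposite in CALR, HBEGF, EPHA2, FCGBP and CDH3, which had -0.75, 0.012, 0.11, -0.084 and -0.42 in HT29. NDRG1, with -1.79 in SW480, had -0.031. TXNIP, with -0.17 against all 6 SCR in SW480 and no call, had 2.04 in HT29. VEGFA and ASNS, with -1.19 and -0.83, overlapped, as HT29 SCR replicate 3 lay below both siPOLR1D-3 libraries.

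List medians in HT29, beside 0.0015 for all genes, were -0.86 for the ATF4 and CHOP targets, with 35 of 39 below 0, and -0.44 for the synthetases. NRF2 targets had -0.67, MAPK genes -0.15, colonocyte genes 0.61 and Wnt targets 0.43. The endoplasmic reticulum list had -0.89, with 22 of 22 members below 0 and 1 at an unadjusted p under 0.05. DNA replication genes had 0.39 and mitotic genes 0.38. Interferon-stimulated genes had -0.42, the 7 APOL and Schlafen genes tested -0.60 and ribosomal proteins -0.049. The other 12 medians lay between -0.12 and 0.14. No member of any list was called in HT29. Of the 10 largest positive genes 3 were tested in HT29, and all 3 had a log2 fold change above 0, beside 80.0% of the 1133 genes called higher against SCR 4-6 and tested there. Of the 10 largest negative genes 5 were tested and 4 were below 0, beside 81.3% of 1490 called lower.

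Several of these medians depend on HT29 SCR replicate 1, as a look at them without each library showed, which was chosen after the values were seen. CALR had 91290, 36882, 32387 and 31471 in HT29 SCR replicates 1-4 and 26416 and 24936 in HT29 siPOLR1D-3, and HERPUD1 had 9690.3, 4117, 727 and 1167, then 799 and 727, in the same order. With 1 library left out, the endoplasmic reticulum median ran from -1.25 to -0.39, -0.39 being without HT29 SCR replicate 1. NRF2 targets ran from -0.80 to -0.36, MAPK genes from -0.28 to -0.035 and mitotic genes from 0.14 to 0.56, each nearest 0 without that library. DNA replication genes ran from -0.066 to 0.63 and ribosomal proteins from -0.15 to 0.10, both turning in sign without it. Interferon-stimulated genes had -0.92 without HT29 SCR replicate 2 and 0.029 without replicate 4. The APOL and Schlafen genes had -1.11 without replicate 2 and -0.29 without replicate 1, and Wnt targets 0.27 without siPOLR1D-3 replicate 1. Of the 12 lists given only as a range, 7 changed sign with 1 library left out.

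The other siRNA, siPOLR1D-2, was set against SCR 1-3 in SW480, so that no library is shared with the comparison of siPOLR1D-3 with SCR 4-6. Replicate 3 of siPOLR1D-2 stands apart from replicates 1 and 2: along the main axis of a principal component analysis of the 12 SW480 libraries (39.7% of the variance) it lies at 37.0 and they at -56.7 and -57.9. The siPOLR1D-3 libraries lie at 59.3, 46.6 and 47.7, and SCR replicates 1-6 at -18.7, -77.9, -76.7, 35.6, 37.6 and 24.0. Of 14800 genes limma called 0 (0%), while 2061 had an unadjusted p under 0.05 and the smallest adjusted p was 0.0918. POLR1D had a log2 fold change of -1.13 there, EREG -1.29, AREG -1.69, VEGFA -0.53 and ASNS -1.90. Medians, beside 0.014 for all genes, were -0.62 for ATF4 and CHOP targets and -0.61 for synthetases. MAPK genes had -0.49, NRF2 targets -0.34, endoplasmic reticulum genes -0.28, colonocyte genes 0.21 and Wnt targets 0.027. Mitotic genes had -0.31, DNA replication genes 0.091, ribosomal proteins -0.21, interferon-stimulated genes -0.018 and the 8 APOL and Schlafen genes tested -0.54. The other 12 lay between -0.30 and 0.17. With 1 library left out, the synthetase median ran from -0.67 to -0.36, -0.36 being without SCR replicate 3, and that of endoplasmic reticulum genes from -0.42 to -0.17. MAPK genes had -0.89 and colonocyte genes 0.58 without SCR replicate 1, and -0.28 and 0.41 without siPOLR1D-2 replicate 3. APOL and Schlafen genes had -1.14 without SCR replicate 2 and -0.10 without siPOLR1D-2 replicate 3. Ribosomal proteins ran from -0.33 to -0.13. The sign turned for DNA replication genes (-0.14 to 0.26), Wnt targets (-0.062 to 0.095), interferon-stimulated genes (-0.16 to 0.11) and 6 of the other 12 lists. Of the 10 largest positive genes against SCR 4-6, 7 were tested with siPOLR1D-2 and 6 were above 0, beside 81.9% of the 1348 genes called higher against SCR 4-6 and tested here. Of the 10 largest negative genes 7 were tested and all 7 were below 0, beside 84.5% of 1642 called lower. Among the 7, TMEM156 had 0, 1.44 and 2.82 in siPOLR1D-2 and passed the minimum of 10 on SCR 1-3 alone. Its sign there was set by that filter, and nothing is read from it. DMRTA1 lay near the minimum, with 8.09, 10.7 and 8.62 in siPOLR1D-2.

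**Figure D5:**
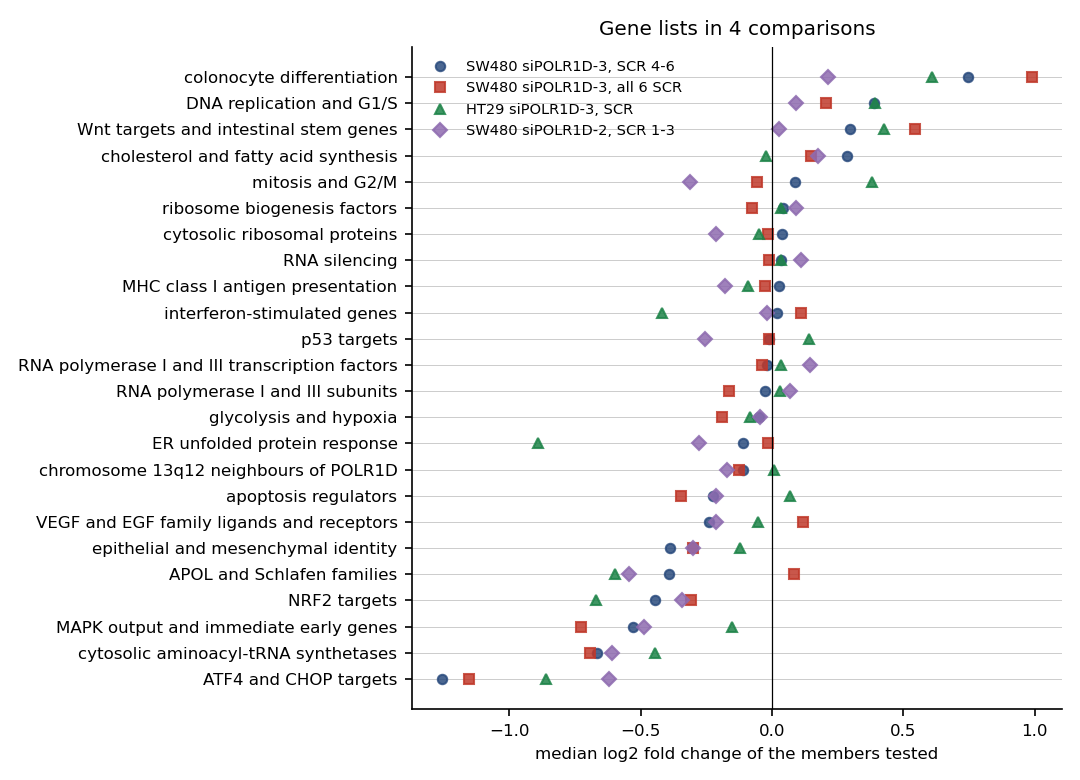
Median log2 fold change of each gene list (horizontal axis) for siPOLR1D-3 against SCR 4-6 and against all 6 SCR, for HT29 siPOLR1D-3 against SCR, and for siPOLR1D-2 against SCR 1-3. The ATF4 and CHOP targets lie lowest in both siPOLR1D-3 comparisons of SW480, at -1.26 and -1.15, and the endoplasmic reticulum list lies at -0.89 in HT29, or at -0.39 without HT29 SCR replicate 1.

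The response to siPOLR1D-3 in SW480, against all 6 SCR, was then compared with that in HT29 gene by gene. Of 13239 genes, limma called 2, which is 0.0151%, and 1013 had an unadjusted p under 0.05. CTSH (chr15:78921058-78949574), the lysosomal protease cathepsin H, had 254, 274 and 282 in SW480 siPOLR1D-3, 66.5, 63.1 and 62.7 in SCR 4-6 and 54.6, 84.3 and 61.9 in SCR 1-3. In HT29 it had 3798 and 3917 with siPOLR1D-3 and 3186, 3217, 3116 and 3877 in SCR. The log2 fold change was 2.04 in SW480 (adjusted p = 0.000963) and 0.21 in HT29, a difference of 1.83 (adjusted p = 0.00493). GCOM1 (chr15:57591908-57714745), a locus of readthrough transcripts joining MYZAP and POLR2M, had 121, 152 and 154 in SW480 siPOLR1D-3, 471, 399.9 and 539 in SCR 4-6 and 486, 520.0 and 529 in SCR 1-3. With 1054 and 1001 in HT29 siPOLR1D-3 and 1222, 1245, 1088 and 1356 in HT29 SCR, the difference in log2 fold change was -1.53 (adjusted p = 0.0116). Reads of GCOM1 can be shared with its neighbours, which was not tested. With siPOLR1D-2 against SCR 1-3, CTSH had 1.34 and GCOM1 -1.41. Without HT29 siPOLR1D-3 replicate 1 the count was 0, and without replicate 2 it was 1, where 1 library is left in that group and is assumed to vary like the other groups. Leaving out 1 SCR library gave up to 7, reached without HT29 SCR replicate 1.

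The median difference between the lines was 0.88 for the endoplasmic reticulum list, beside -0.019 for all genes, and 0.29 without HT29 SCR replicate 1. It was 0.49 for interferon-stimulated genes (-0.038 without HT29 SCR replicate 4 and 1.08 without replicate 2), -0.44 for mitotic genes (-0.21 without HT29 SCR replicate 1), -0.44 for MAPK genes (-0.24 without SW480 SCR replicate 2) and -0.42 for apoptosis regulators. The other 19 lay between -0.25 for the synthetases and 0.22 for NRF2 targets, with -0.20 for the ATF4 and CHOP targets and -0.17 for DNA replication genes. Without HT29 SCR replicate 1 these 4 had -0.41, -0.060, -0.49 and 0.30 in that order, and the ATF4 and CHOP targets had 0.084 without replicate 3. Of the 19 lists, 10 changed sign when 1 library was left out. No list member was called.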

How the data were processed

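The authors deposited 1 signal value per gene and library: read counts normalized with DESeq2 1.24.0 within a cell line, after FastQC 0.11.5 and kallisto 0.44.0 pseudo-alignment of TruSeq RNA Exome paired-end libraries to hg38, by the submitters' processing notes. The table held 40117 rows with 36346 gene names, 1817 of them on several rows, which were added up. Gene positions are those of GRCh38, GENCODE release 29. Genes with a value of 10 or more in at least 3 libraries of a comparison (2 for HT29) were taken as log2(value + 1), the pseudocount being 1. The limma 3.58.1 linear model with a mean-variance trend was fitted in R 4.3.3, with Benjamini-Hochberg adjusted p under 0.05 as the threshold. Python 3.11.15 made the tables. The fit was tried on simulated data first. The interaction subtracts the HT29 response from that of SW480 in 1 fit of 15 libraries.

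Named genes are POLR1D, VEGFA and EREG, then the 10 largest positive and 10 largest negative log2 fold changes against SCR 4-6 among genes with adjusted p under 0.05, groups that do not overlap and a mean of 50 or more in the higher group. To these come up to 4 members of each of 24 gene lists with the smallest p against SCR 4-6 and up to 5 interaction genes. Some items that meet these rules, and 3 promoters, are not reported here. The libraries compared, the gene lists and their members were chosen with earlier results of these data known. Alternatives tried were other minimum values, a pseudocount of 5, upper quartile scaling, quantile normalization, limma without trend or with robust empirical Bayes, rows as deposited, a replicate block, 1 fit of all 12 SW480 libraries, other controls, and leaving out each library in turn. List medians without each library, the counts of signs in HT29 and with siPOLR1D-2 and folds without each library were added after the values were seen.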

Additional observations from a re-analysis of the deposited data

Results flagged for a closer look

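Among SCR groups of 4 or 6 libraries, 207 groups of values, of named genes or of estimated depth, were examined. The search was for a library whose gap to its nearest neighbour takes up an unusually large share of the group's range. In 15 groups (7.25%) it did, where chance gives about 1 in 20, or 10.3.

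In SW480 SCR replicate 1 these were MDM2, with a gap of 0.812 of the range, SLC7A11 with 0.705 and XIAP with 0.667, each the lowest of 6 libraries. SCR replicate 2 was highest for POLE (0.759) and lowest for ANXA1 (0.663) and ANXA3 (0.685). SCR replicate 3 was highest for YARS (0.674), ATF6 (0.643) and GCLC (0.701) and lowest for PROX1 (0.716). In HT29, SCR replicate 1 was highest for RPS26 (0.887), CALR (0.851) and PMAIP1 (0.851) and lowest for NOP2 (0.832), and SCR replicate 4 was highest for CTSH (0.854).

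Tested for an unequal response in SW480 and HT29, limma called CTSH, with a log2 fold change 1.83 higher in SW480 than in HT29 (adjusted p = 0.00493), and GCOM1, with a difference of -1.53 (adjusted p = 0.0116).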

How the results depend on the processing

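Against SCR 4-6, the 3110 genes called became 1960 in limma without trend and 444 in 1 fit of all 12 SW480 libraries (137 higher, 30.9% against 45.9%), where the spread of every SW480 group enters the test. With all 6 SCR as controls the count was 917. Upper quartile scaling gave 3200, of which 57.7% were higher. Leaving out 1 library gave 1819 (without siPOLR1D-3 replicate 3) to 2703. No paired analysis was possible because siPOLR1D-3 replicates 1-3 and SCR replicates 4-6 share no replicate number.

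Against all 6 SCR, limma without trend called 530 and upper quartile scaling 804, with 52.6% higher in place of 34.4%. Leaving out 1 library gave 43 (without siPOLR1D-3 replicate 3) to 1319 (without SCR replicate 1), with 70 without siPOLR1D-3 replicate 1, 142 without replicate 2 (23.2% higher) and 554 without SCR replicate 6. With the replicate number as a replicate block, which pairs libraries of the same number, 2039 were called (1005 higher and 1034 lower). Residuals of libraries with the same number correlated at 0.059 on average over genes and those of other pairs at -0.012.

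In HT29 the count of 0 became 1 with a value of 50 or more, 2 with upper quartile scaling, 2 with quantile normalization and 4 in limma without trend, and 0 with the replicate block. HT29 SCR replicates 3 and 4 have no partner of the same number and do not enter the fold of that block. In the block of the interaction given below, neither they nor SW480 SCR replicates 4-6 enter it. Leaving out 1 library gave 0 to 4 (without SCR replicate 1). For siPOLR1D-2 against SCR 1-3 it became 2 in limma without trend and 909 in 1 fit of all 12 SW480 libraries, and leaving out 1 library gave 0 to 1 (without SCR replicate 1). The 2 interaction genes became 190 with the replicate block, and 0 (without HT29 siPOLR1D-3 replicate 1) to 7 (without HT29 SCR replicate 1) when 1 library was left out. It was 1 without HT29 siPOLR1D-3 replicate 2, 6 without HT29 SCR replicate 3, 4 without HT29 SCR replicate 4, and 5 without SW480 SCR replicate 2 or 3. Where 1 HT29 siPOLR1D-3 library is left, it is assumed to vary like the other groups. The cause of these changes was not tested.

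The log2 fold change of POLR1D was -1.22 with SCR 1-3 as controls, and that of VEGFA -1.07. Leaving out 1 library, POLR1D ranged from -1.07 to -0.83 against SCR 4-6 and from -1.21 to -0.97 against all 6 SCR. VEGFA ranged from -1.75 to -1.28 and from -1.48 to -1.15, with adjusted p up to 0.130. EREG ranged from -3.24 to -2.49 and from -3.05 to -2.72. With SCR 1-3 as controls, MUC5AC had -0.57, CACNA1E -1.69 and MYH2 1.32, opposite in sign to the value against SCR 4-6, and the cause was not tested. Of the 108 other named genes, those that moved by more than the spread between replicates numbered 6 with a pseudocount of 5, 3 with quantile normalization, 2 with upper quartile scaling and 53 with all 6 SCR as controls. With SCR 1-3 as controls 73 of 106 did, and 3 more were counted as reversed, the 3 named above. These 3 are not every change of sign. RPS15 and RPS10 had 0.24 and 0.24 against SCR 4-6 but -0.37 and -0.022 with SCR 1-3 as controls.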
